A study of Danio rerio with 12 samples.

Results

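The genes described here carry out DNA replication and drive the cell cycle of the zebrafish embryo. They are the origin licensing factors (the origin recognition complex, ORC, with cdc6 and cdt1), the MCM helicase and its activators, the sliding clamp pcna and its loader, the primase and replicative polymerases, the single-strand binding complex RPA with fen1 and lig1, ribonucleotide reductase, 7 cyclins, and the kinases cdk1 and cdk2. They were taken by gene symbol from a list of 49, of which 48 were among the 14850 genes of the expression tables. The remaining gene, cdt1, was not analysed here. The 48 genes all passed the minimum used for testing (a mean of 10 counts over the libraries compared) in every comparison, and the lowest count of any of them in any library was 10.

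Before each S phase, ORC and cdc6 load the ring of MCM subunits onto origins, and cdc45 and the GINS complex then turn it into an active helicase. The cleavage cycles of the early zebrafish embryo run on products that the mother stored in the egg, alternate between S phase and mitosis with almost no gap phases, and slow down from the midblastula transition on. Maternal transcripts are cleared while the zygotic genome takes over, and cells acquire gap phases and begin to leave the cycle as tissues differentiate.

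Expression was measured by polyA RNA-seq of whole embryos of the Ekwill strain in 12 libraries, with 3 biological replicates in each of 4 groups. Control embryos had been injected with water and phenol red dye, and TALE KD embryos with the same carrier plus morpholinos against Prep1 (prep1.1), Pbx2 and Pbx4, which are homeodomain transcription factors of the TALE family. Both groups were collected at 6hpf (hours post-fertilization), during gastrulation, and at 12hpf, in early segmentation. The questions addressed were how the replication and cycle genes changed between these stages and whether TALE KD altered them. The control injection held no oligo, the morpholinos leave the targeted genes in place, and Meis proteins and other Pbx and Prep genes were not targeted. The labels do not say whether replicates came from separate clutches, so the p-values measure only the spread between these libraries, which may in part be technical.

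Library totals lay between 11884808 and 15031222 counts at 6hpf and between 19783332 and 40924971 at 12hpf. Levels are given as CPM (counts in every 1000000 of a library) after TMM scaling across the 12 libraries, in the order of replicates 1, 2 and 3, and a level of one gene is not set against that of another because CPM is not corrected for transcript length. The stage labels held against their markers, since 10 of 11 early gastrula markers fell and 10 of 11 segmentation markers rose from 6hpf to 12hpf in controls. Among these, the endoderm regulator sox32 was at 262, 227 and 228 CPM in control 6hpf and at 2.07, 1.90 and 1.01 CPM in control 12hpf. The hindbrain gene egr2b had at most 2 counts in any control 6hpf library and was at least 221-fold higher in control 12hpf, against a floor of 3 counts per library. Of the targeted genes, pbx2 transcripts were higher in TALE KD (log2 fold-change 0.74 ± 0.07 at 6hpf and 1.503 ± 0.06 at 12hpf), while pbx4 and pknox1.1 (prep1.1) were not called at either stage. A morpholino acts on translation or splicing, so these levels do not measure the block. In whole embryos, fewer cycling cells and less transcript per cycling cell cannot be told apart.

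Calls required a fold-change of 1.5 or more together with an adjusted p no higher than 0.01 in edgeR's quasi-likelihood test, adjusted over all genes tested by the Benjamini-Hochberg method, and "rose" and "fell" are used only of called genes. Log2 fold-changes are given ± an approximate standard error, which is their size divided by the square root of the test's F statistic. From 6hpf to 12hpf in control embryos, 18 of the 48 genes rose (37.5%), 11 fell (22.9%) and 19 were not called. Among all genes, 3675 of 11364 genes rose (32.3%) and 3014 fell (26.5%), so neither share of the 48 stood far from that of all genes. All 7 cyclins fell and neither kinase was called. The 18 that rose were all components of the replication machinery, of which 4 others fell (cdc6, gins3, rpa3 and rrm2). The median log2 fold-change was 0.29 over the 48 genes and 0.07 over all genes tested. The stages were deposited as separate tables, and any batch of these tables cannot be told apart from stage.

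**Figure D1:**
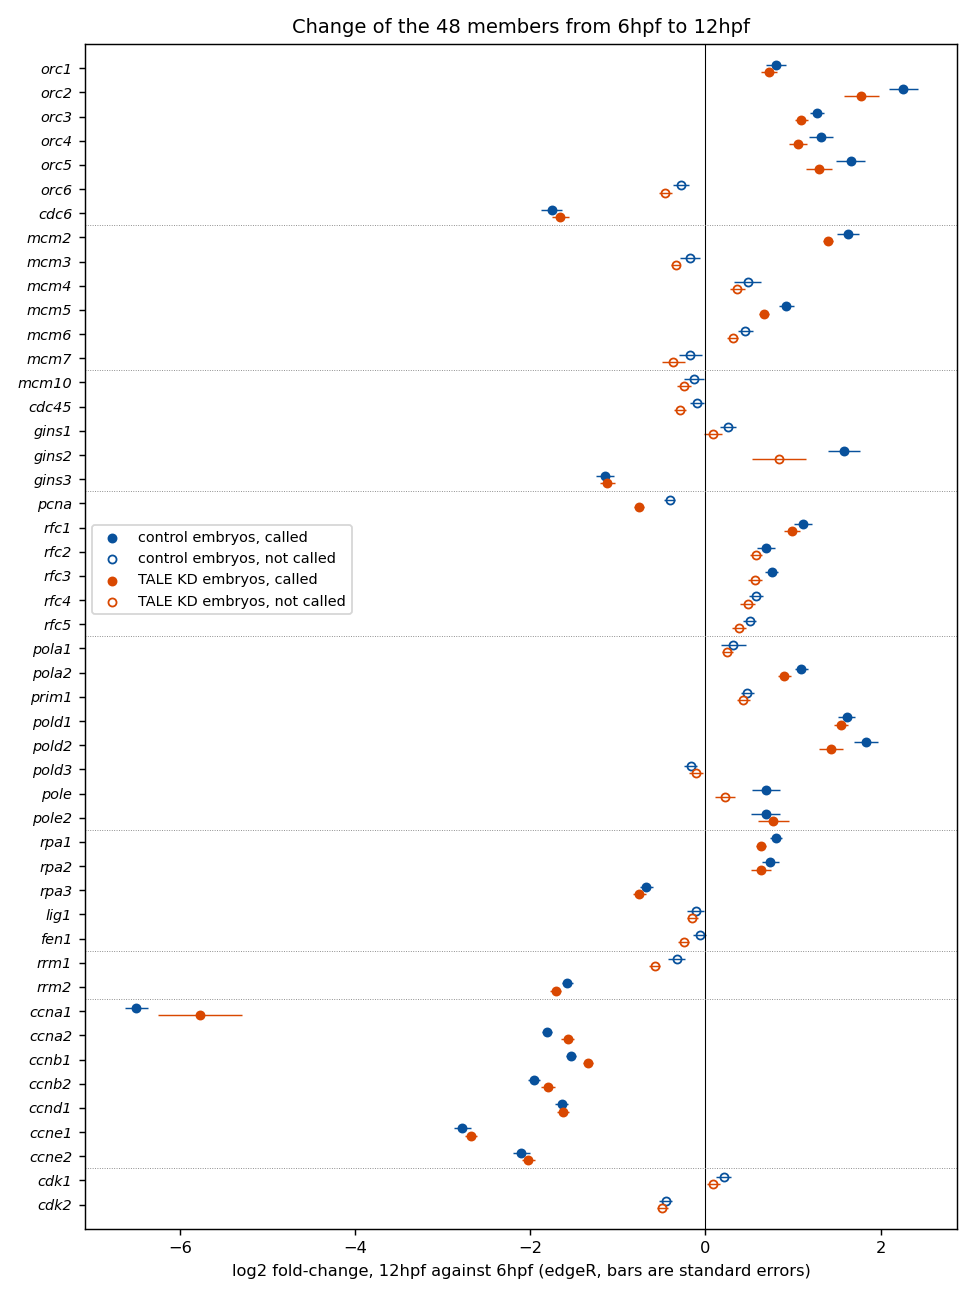
Log2 fold-change from 6hpf to 12hpf of each of the 48 genes (x axis, bars are standard errors), grouped by role between dotted lines, in control embryos (blue) and TALE KD embryos (orange), with filled points for called genes. The 7 cyclins all lie left of 0, with ccna1 lowest at -6.50 in controls, and orc2 lies farthest right at 2.26.

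The largest falls with stage were those of cyclins. Cyclin A1 (ccna1) is, in Xenopus, the maternal A-type cyclin of the cleavage divisions and is absent from later somatic cells. In control 6hpf embryos ccna1 was at 48.05, 46.1 and 46.0 CPM and in control 12hpf embryos at 0.565, 0.581 and 0.419 CPM, so that the 3 late libraries held no more than 15 counts each. The groups were far apart, with a log2 fold-change of -6.50 ± 0.13 (90.6-fold lower at 12hpf, adjusted p = 2.28e-09). Its paralog ccna2, the A-type cyclin of S and G2 phase in somatic cells, fell from 803, 846 and 808 CPM to 244, 235 and 244 CPM (log2 fold-change -1.81 ± 0.06). RSEM divides reads that match both paralogs of a pair by estimation, so their split is less certain than their sum.

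The E-type cyclins activate cdk2 at the start of S phase, and in Xenopus cyclin E1 is supplied maternally. Here ccne1 fell from 329, 269 and 263 CPM in control 6hpf to 43.5, 41.2 and 44.7 CPM in control 12hpf (log2 fold-change -2.78 ± 0.10), the second largest fall of the 48 genes. Its paralog ccne2 fell from 567, 477 and 604 CPM to 132, 137 and 126 CPM (log2 fold-change -2.10 ± 0.09). In neither gene did any 6hpf library overlap the 12hpf libraries. This was common, as the stages overlapped in controls in 6 of the 48 genes, and overlap between stages was not counted over all genes.

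The B-type cyclins bind cdk1 and carry the cell into mitosis. Control levels of ccnb1 were 848, 888 and 844 CPM at 6hpf and 309, 298 and 309.6 CPM at 12hpf (log2 fold-change -1.54 ± 0.06). Those of ccnb2 were 175, 164 and 165 CPM at 6hpf and 44.3, 45.5 and 43.9 CPM at 12hpf (log2 fold-change -1.96 ± 0.07). Cyclin D1 (ccnd1), which couples growth signals to G1 progression with cdk4 and cdk6, also fell, from 1904, 1783 and 1659.5 CPM to 600.1, 615 and 548 CPM (log2 fold-change -1.64 ± 0.07). The 7 cyclins of the 48 genes thus fell together, but not every cyclin did so. The D-type cyclin gene ccnd2a, from the list of G1 and E2F control, rose from 1.83, 1.71 and 1.70 CPM in control 6hpf to 11.0, 11.3 and 11.3 CPM in control 12hpf (log2 fold-change 2.64 ± 0.14, adjusted p = 3.02e-07). Its paralog ccnd2b rose as well, from 0.397, 0.214 and 0.232 CPM to 1.21, 1.24 and 0.670 CPM (log2 fold-change 1.84 ± 0.43, adjusted p = 0.00356), a call at low counts that was lost in DESeq2 (adjusted p = 0.0106) and without control 6hpf replicate 2 or 3 or control 12hpf replicate 1 or 2 (adjusted p of 0.0131 to 0.0176).

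**Figure D2:**
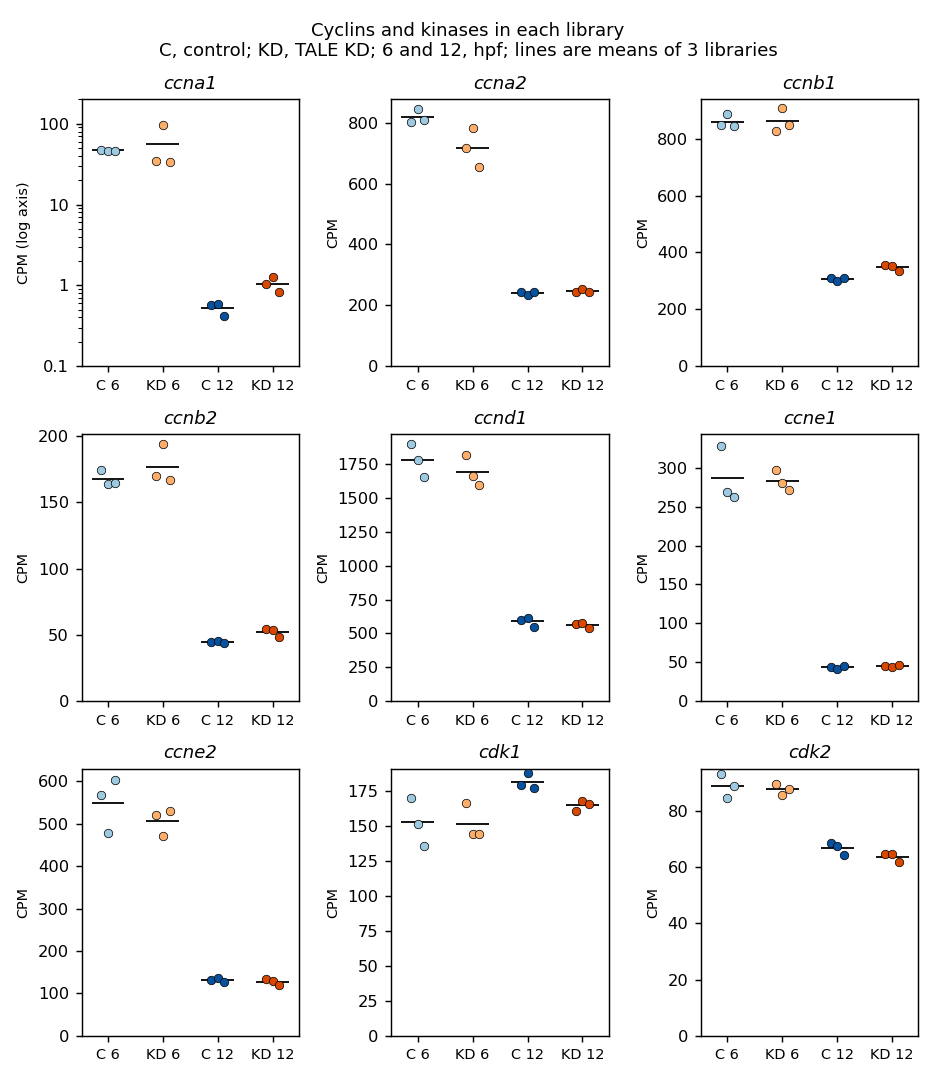
Level of the 7 cyclins and of cdk1 and cdk2 in each library (y axes, CPM from 0, except a log axis for ccna1; points are libraries, lines are means of 3) in control and TALE KD embryos at 6hpf and 12hpf. For every cyclin all 6hpf libraries lie above all 12hpf libraries, whereas cdk1 stays between 136 and 188 CPM, and the TALE KD 6hpf library of replicate 2 stands apart for ccna1 at 97.8 CPM. Of the 48 genes, 6 overlapped between the stages in controls and 6 in TALE KD, a count not made over all genes.

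Neither catalytic partner was called, though cdk2 was lower at 12hpf like the 7 cyclins, by a smaller amount. The mitotic kinase cdk1 was at 170.1, 152 and 136 CPM in control 6hpf and at 179.6, 188 and 177 CPM in control 12hpf, a log2 fold-change of 0.21 ± 0.09 (adjusted p = 0.0526). The S phase kinase cdk2 was at 93.2, 84.6 and 88.8 CPM and then at 68.4, 67.6 and 64.2 CPM, with groups that did not overlap but a log2 fold-change of -0.46 ± 0.07, under the 1.5-fold threshold (adjusted p = 0.000314).

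Of the 7 licensing genes tested, 5 rose and 1 fell. This and the counts of the roles that follow stand beside 32.3% of all genes that rose and 26.5% that fell. The ORC subunit orc2 had the largest rise of the 48 genes, from 1.91, 2.71 and 2.56 CPM in control 6hpf to 11.0, 11.8 and 12.7 CPM in control 12hpf (log2 fold-change 2.26 ± 0.17, adjusted p = 1.9e-06). The other subunits orc5 (log2 fold-change 1.66 ± 0.17), orc4 (1.32 ± 0.14), orc3 (1.27 ± 0.08) and orc1 (0.80 ± 0.11) also rose. The exception was orc6, the subunit least like the others in sequence, at -0.27 ± 0.09 and not called. The loading factor cdc6 went the opposite way, from 522, 485 and 670.0 CPM to 174, 180.2 and 156 CPM (log2 fold-change -1.76 ± 0.12). Within licensing, 5 ORC subunits and cdc6 thus moved in opposite directions.

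In the MCM ring, mcm2 rose from 121, 139.6 and 179 CPM in control 6hpf to 478, 467 and 453 CPM in control 12hpf (log2 fold-change 1.63 ± 0.13), and mcm5 rose with a log2 fold-change of 0.92 ± 0.09. The remaining 4 subunits of the ring were not called with all libraries. Their log2 fold-changes were 0.48 ± 0.15 for mcm4, 0.45 ± 0.09 for mcm6, -0.17 ± 0.13 for mcm7 and -0.18 ± 0.12 for mcm3. Of these, mcm6 missed the call by size alone (adjusted p = 0.00106). For mcm4 the value lay between 0.35 and 0.69 when single libraries were left out, and it was called higher without control 6hpf replicate 3 (0.69, adjusted p = 0.000511). Scaling by library totals also called mcm4 (0.74) and mcm6 (0.71), as well as rfc4 (0.83), rfc5 (0.76) and prim1 (0.73), which are described below.

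Among the helicase activators, 2 subunits of the GINS complex moved in opposite directions. GINS subunit gins2 rose from 3.81, 6.14 and 6.66 CPM to 15.6, 18.3 and 17.4 CPM (log2 fold-change 1.58 ± 0.19), while gins3 fell from 61.1, 54.0 and 48.1 CPM to 24.3, 26.4 and 25.3 CPM (log2 fold-change -1.14 ± 0.10). Another subunit, gins1 (0.26 ± 0.10), the helicase component cdc45 (-0.10 ± 0.08) and mcm10 (-0.13 ± 0.12), which acts in starting the helicase, were not called.

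The clamp and its loader differed as well. RFC opens the PCNA ring and places it on primed DNA, and its large subunit rfc1 rose from 25.1, 32.0 and 26.4 CPM in control 6hpf to 59.2, 62.3 and 65.3 CPM in control 12hpf (log2 fold-change 1.12 ± 0.10). The small subunits rfc3 (0.76 ± 0.08) and rfc2 (0.69 ± 0.10) rose, and rfc4 (0.58 ± 0.08) and rfc5 (0.50 ± 0.08) lay under the 1.5-fold threshold, which rfc4 passed without control 6hpf replicate 1 or control 12hpf replicate 3 (0.63 in both cases). The clamp pcna was at 1536, 1553 and 1689 CPM and then at 1252, 1256 and 1195 CPM. Its log2 fold-change of -0.41 ± 0.06 was not called, as it lay under the 1.5-fold threshold (adjusted p = 0.000183).

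The polymerase genes rose in 5 of 8 cases and fell in none. DNA polymerase delta copies the lagging strand, and its subunit pold2 rose from 5.88, 7.93 and 5.96 CPM in control 6hpf to 25.8, 23.9 and 23.1 CPM in control 12hpf (log2 fold-change 1.83 ± 0.13). The catalytic subunit pold1 rose by 1.61 ± 0.10 on the log2 scale, whereas the accessory subunit pold3 was not called (-0.17 ± 0.07). For polymerase epsilon, which copies the leading strand, both pole (0.69 ± 0.16) and pole2 (0.69 ± 0.17) rose. Their calls were lost when single control libraries were left out: pole without control 6hpf replicate 1 (log2 fold-change 0.52) or control 12hpf replicate 3 (adjusted p = 0.0117), and pole2 without control 6hpf replicate 1 (0.54) or control 12hpf replicate 1 or 2 (adjusted p = 0.0168 and 0.0175). Polymerase alpha starts each strand with its primase, and of these genes pola2 rose (1.096 ± 0.08) while the catalytic subunit pola1 (0.32 ± 0.14) and the primase prim1 (0.48 ± 0.08) were not called. For prim1 the call was missed by size alone (adjusted p = 0.000352).

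RPA coats single-stranded DNA as a trimer, and its 3 genes did not move together. The large subunit rpa1 rose from 189.6, 204 and 204 CPM in control 6hpf to 366, 374 and 337 CPM in control 12hpf (log2 fold-change 0.81 ± 0.07), and rpa2 rose with it (0.74 ± 0.09). The small subunit rpa3 fell from 95.8, 85.7 and 87.3 CPM to 56.8, 60.1 and 56.3 CPM (log2 fold-change -0.68 ± 0.08), a call that was lost with scaling by library totals (-0.42). The flap nuclease fen1 (-0.07 ± 0.07) and the ligase lig1 (-0.11 ± 0.10), which finish Okazaki fragments, were not called.

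Ribonucleotide reductase makes deoxynucleotides from ribonucleotides. Its small subunit rrm2 fell from 3019, 2904 and 3039.7 CPM in control 6hpf to 982, 1016 and 1096 CPM in control 12hpf (log2 fold-change -1.58 ± 0.06, adjusted p = 4.2e-08). The large subunit rrm1 had a log2 fold-change of -0.33 ± 0.10 and was not called. The 48 genes together made up 13872, 14092 and 14743 CPM in control 6hpf and 9845, 9882 and 9373 CPM in control 12hpf. Of this sum the cyclins held 4673, 4473 and 4389.7 CPM at 6hpf and 1373, 1371 and 1317 CPM at 12hpf. Such a sum weighs each gene by its level, so it does not give the direction of most genes. By gene, 18 of the 48 rose and 11 fell, with a median log2 fold-change of 0.29.

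These directions depend on scaling for genes near 0 only. Scaling by library totals moved the median of all genes by 0.25 upward in controls and by 0.23 in TALE KD on the log2 scale relative to TMM, so the changes above are relative to the TMM scale. With library totals, 23 of the 48 genes rose and 10 fell in controls, against 4465 and 2275 of all genes, compared with the 3675 and 3014 given above. None of the 29 called genes changed sign under library totals, median-of-ratios scaling or DESeq2. A shift of this size could not reverse a change of 1.5-fold or more, so this adds no separate check.

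Further genes of the cell cycle were read from lists by role. Beside the counts of each list stand the shares of all genes in controls, of which 32.3% rose and 26.5% fell. Of 21 mitosis genes tested, 17 fell and 0 rose in controls in edgeR's test and in DESeq2. Those that fell included the B-type cyclin ccnb3 (-1.67 ± 0.07). In edgeR's test 19 had an unadjusted p under 0.05, against 9069 of 11364 genes. The largest fall was that of birc5b, a survivin paralog of the chromosomal passenger complex (-2.89 ± 0.35), which had few counts at 12hpf (0.151, 0.271 and 0.209 CPM). Of 22 other replication genes tested, 5 rose and 9 fell. The extremes were the MCM binding protein gene mcmbp, which rose (1.14 ± 0.11), and cdc7, whose kinase triggers origin firing and which fell (-1.20 ± 0.10). Of 16 genes of G1 and E2F control, 6 rose and 4 fell, led by the Myc gene myca (4.32 ± 0.31), which was at 0.556, 0.143 and 0.387 CPM at 6hpf, and by the cyclin gene ccnd3 (-2.79 ± 0.37). The D-type cyclin genes of this list thus did not share a direction, as ccnd2a and ccnd2b were among the 6 that rose.

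Of 17 CDK inhibitors and switches tested, 4 rose and 7 fell. The inhibitor cdkn1d rose (2.36 ± 0.47) from 0.556, 0.143 and 0.310 CPM. The oocyte kinase gene wee2, which restrains Cdk1, fell from 18.3, 13.6 and 16.5 CPM to 0.490, 0.659 and 0.628 CPM (-4.80 ± 0.20). All 14 maternal and oocyte transcripts tested fell, with log2 fold-changes from -5.53 to -1.03. Among them were the oocyte linker histone gene h1m (-5.53 ± 0.15) and cth1 (-5.53 ± 0.18). Set beside these values, ccna1 was at -6.50 and the other cyclins lay between -2.78 and -1.54. These lists were described by counts and not tested as sets.

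**Figure D3:**
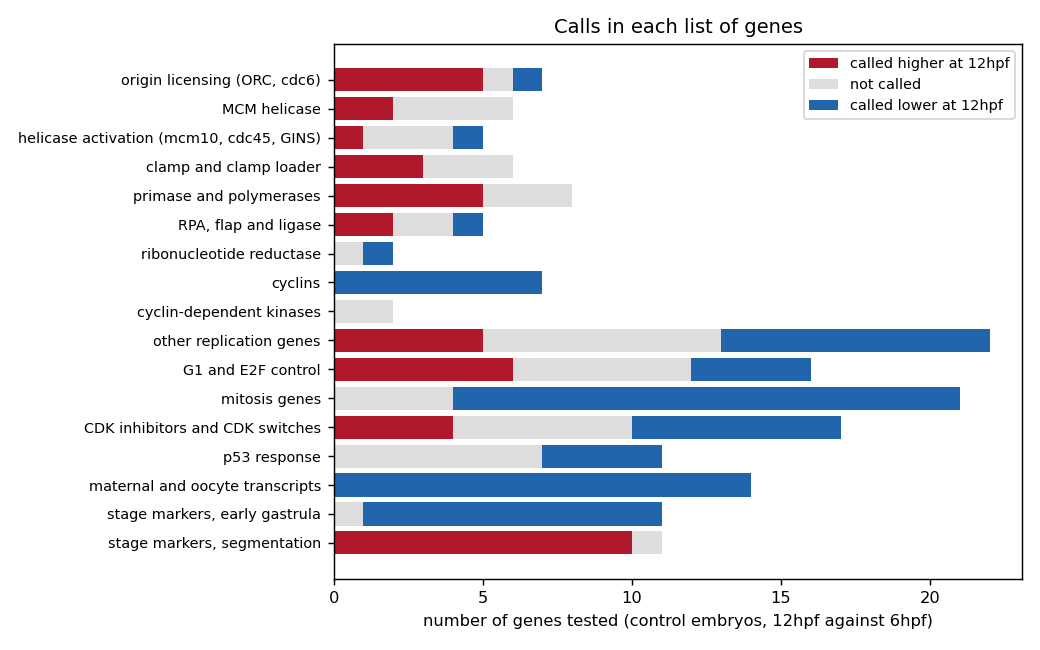
Number of genes in each list (x axis) that were called higher (red), not called (grey) or called lower (blue) at 12hpf against 6hpf in control embryos. The 7 cyclins, 17 of 21 mitosis genes and 14 maternal and oocyte transcripts were lower, and the calls among ORC, polymerase and clamp loader genes were mostly higher.

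TALE KD embryos were compared between the stages in the same way. In them 14 of the 48 genes rose (29.2%) and 12 fell (25%), with 30.6% and 24.7% of 11523 genes over the whole table. The median log2 fold-change was 0.16 over the 48 genes and 0.09 over all genes. No gene of the 48 had opposite signs in the control and TALE KD comparisons, and 25 of the 48 were called in both. Calls were common among all genes too, with 6689 of 11364 called in controls and 6371 of 11523 in TALE KD. The shares of all genes called in both or opposite in sign were not counted. Genes called in controls alone were gins2 (0.84 ± 0.31 in TALE KD), rfc2 (0.58 ± 0.07), rfc3 (0.57 ± 0.08) and pole (0.23 ± 0.11). The first of these rested on a single library, since gins2 was called in TALE KD too without TALE KD 6hpf replicate 2 (1.32, adjusted p = 0.00219) and lay between 0.48 and 1.32 when single libraries were left out. Both rfc2 and rfc3 lay just under the 1.5-fold threshold in TALE KD, and were called there without TALE KD 12hpf replicate 2 (0.59 for each), as well as rfc2 without TALE KD 6hpf replicate 1 or 12hpf replicate 3 and rfc3 without TALE KD 6hpf replicate 3 (0.61 to 0.62). Among the 25, the TALE KD calls of rpa2 (0.55 to 0.58 without TALE KD 6hpf replicate 2 or 12hpf replicate 1 or 2) and pole2 (adjusted p = 0.0112 without TALE KD 12hpf replicate 2) were lost in this way. The clamp gene pcna was called in TALE KD alone, where it fell by 0.76 on the log2 scale. This call was lost with scaling by library totals (-0.53). In controls pcna was lower at 12hpf as well (-0.41, adjusted p = 0.000183) and missed the call by size alone.

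All 7 cyclins fell in TALE KD embryos too. For ccna1 the TALE KD libraries were at 34.7, 97.8 and 34.0 CPM at 6hpf and at 1.05, 1.25 and 0.820 CPM at 12hpf, a log2 fold-change of -5.77 ± 0.48. Replicate 2 at 6hpf held more than any other library, and without it the log2 fold-change was -5.08. The same library had the highest TALE KD level at 6hpf for 29 of the 48 genes, a count that was not made over all genes. This library was also high for the egg transcript cth1, at 43.5, 62.0 and 33.3 CPM over the 3 TALE KD libraries. The part of this library's composition in the result was not tested. The remaining cyclins fell by 1.34 (ccnb1) to 2.68 (ccne1) on the log2 scale.

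At 6hpf no gene of the 48 was called between TALE KD and control embryos. In edgeR's test 2 had an unadjusted p under 0.05, against 577 of 10202 genes. DESeq2 also called 0 and gave 2 with an unadjusted p under 0.05, against 434 of 10202 genes. Among all genes, 4 of 10202 genes (0.0392%) were called at this stage, so few calls were made anywhere. Log2 fold-changes lay between -0.37 (orc2) and 0.38 (pold2), with a median of 0.03 against 0.01 over all genes.

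The 3 genes with the smallest p at 6hpf illustrate the size of these differences. The clamp loader gene rfc3 was at 29.2, 31.7 and 30.4 CPM in control and at 33.8, 37.3 and 39.2 CPM in TALE KD (0.28 ± 0.10, adjusted p = 0.677). Cyclin A2 (ccna2) was at 716, 783 and 654 CPM in TALE KD, below each of its controls given above (-0.18 ± 0.08, adjusted p = 0.865). For pold2 the TALE KD levels were 6.75, 9.71 and 9.13 CPM and overlapped the controls (0.38 ± 0.20, adjusted p = 0.952). None of them passed the test.

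At 12hpf orc2 was lower in TALE KD and was the only gene of the 48 called (2.08%), where 147 of 11640 genes (1.26%) were called lower and 34 (0.292%) higher. Its TALE KD level was 5.87, 6.23 and 7.25 CPM against 11.0, 11.8 and 12.7 CPM in control, a log2 fold-change of -0.88 ± 0.12 (1.84-fold lower, adjusted p = 0.00407). All 3 TALE KD libraries lay below all controls, and above every 6hpf library of either group. This call depended on having all libraries, since the adjusted p was 0.0108 to 0.0318 without control replicate 1, 2 or 3 or without TALE KD replicate 1 or 2, and 0.00125 without TALE KD replicate 3. The log2 fold-change stayed between -0.97 and -0.82.

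Without regard to size, 4 genes were lower in TALE KD with an adjusted p no higher than 0.01 (8.33%, against 2.09% of all genes tested), and no gene of the 48 passed that p in the other direction. Besides orc2 they were pcna, mcm5 and gins2, each under 1.5-fold. In edgeR's test none of the 48 genes passed that p without control replicate 1 or 2 or TALE KD replicate 1 or 2. With single libraries left out, the adjusted p reached 0.017 for pcna, 0.0303 for mcm5 and 0.0593 for gins2. The clamp gene pcna had 923, 889.6 and 927 CPM in the TALE KD libraries, and its controls had 1252, 1256 and 1195 CPM (-0.44 ± 0.04, adjusted p = 0.00158). For mcm5 the TALE KD levels were 309.8, 322 and 322 CPM, below 419, 429 and 388 CPM in controls (-0.38 ± 0.05, adjusted p = 0.00382). Those of gins2 were 12.2, 11.9 and 12.2 CPM and 15.6, 18.3 and 17.4 CPM (-0.51 ± 0.08, adjusted p = 0.00987). In each of these genes the groups did not overlap.

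Deviations from the group mean correlated between replicate 3 of control and TALE KD at 12hpf (r = 0.54). Replicates 1 and 2 correlated between the groups nearly as well across numbers (0.25 and 0.22) as within them (0.28 and 0.31). When the replicate number entered the fit as a block, 10 genes were lower with an adjusted p no higher than 0.01 (20.8%, against 8.15% of all genes). They were orc2, orc4, mcm2, mcm3, mcm5, gins2, pcna, prim1, pole and fen1. Of these orc2 was still the only one past 1.5-fold, where 385 of 11640 genes were called lower. Replicate 3 of both groups stood apart from replicates 1 and 2. Without it orc2, orc4 and pole were called lower (6.25%, against 5.02% of 11529 genes).

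**Figure D4:**
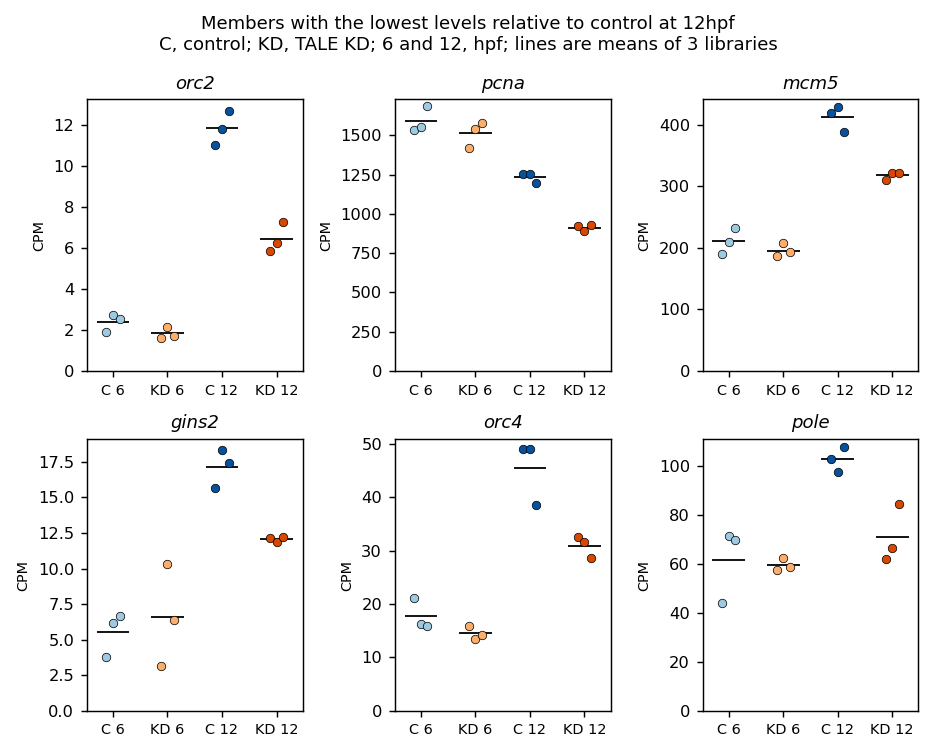
Level in each library (y axes, CPM from 0; points are libraries, lines are means of 3) of the 6 genes with the lowest log2 fold-changes in TALE KD at 12hpf, in control (C) and TALE KD (KD) embryos at 6hpf and 12hpf. At 12hpf the TALE KD points lie below all control points in each panel, and orc2 shows the widest separation, at 5.87 to 7.25 CPM against 11.0 to 12.7 CPM.

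The differences that did not pass the test at 12hpf were mostly in the same direction. Of the 48 genes, 38 had a log2 fold-change below 0, with a median of -0.09 over the 48 and -0.003 over all genes. In 17 genes (35.4%) all TALE KD libraries lay below all controls, compared with 16.3% of all genes. In 3 genes (6.25%) they lay above, compared with another 16.3% of all genes. Those 17 were cdk1, fen1, gins2, mcm2, mcm3, mcm5, orc2, orc3, orc4, orc5, pcna, pola2, pold1, pole, prim1, rpa3 and rrm1. Genes are not independent replicates, and no test of the 48 as a set was made.

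By role, 34 of the 39 replication genes of the main list lay below 0, and so did both kinases. The separate list of 22 other replication genes was divided, with 12 below 0 and 10 above (median -0.03). In 6 of these 22 all TALE KD libraries lay below all controls, and in 4 all lay above. TALE KD libraries held 32.7, 31.7 and 28.6 CPM of the ORC subunit orc4, where controls held 48.997, 49.1 and 38.7 CPM (-0.57 ± 0.10, adjusted p = 0.0124). For the polymerase gene pole the levels were 62.1, 66.6 and 84.4 CPM and 103, 97.5 and 108 CPM (-0.54 ± 0.11, adjusted p = 0.02), with TALE KD replicate 3 nearest to the controls. The next lowest of the main list were orc5 (-0.33 ± 0.11), mcm2 (-0.26 ± 0.04), fen1 (-0.25 ± 0.05) and prim1 (-0.23 ± 0.05).

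The cyclins did not share this direction, as 5 of 7 lay above 0. The 3 genes of the main list whose TALE KD libraries all lay above the controls were all cyclins. TALE KD levels of the egg cyclin ccna1 were 1.05, 1.25 and 0.820 CPM, against 0.565, 0.581 and 0.419 CPM for the controls (0.98 ± 0.29, adjusted p = 0.0704). B-type cyclin levels in TALE KD were 354, 353 and 335 CPM for ccnb1 (0.18 ± 0.04, adjusted p = 0.0409) and 54.2, 53.9 and 48.2 CPM for ccnb2 (0.22 ± 0.06, adjusted p = 0.0606). None of these passed the test. Values for the other cyclins were 0.06 ± 0.06 (ccne1), 0.02 ± 0.04 (ccna2), -0.05 ± 0.06 (ccne2) and -0.08 ± 0.05 (ccnd1).

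**Figure D5:**
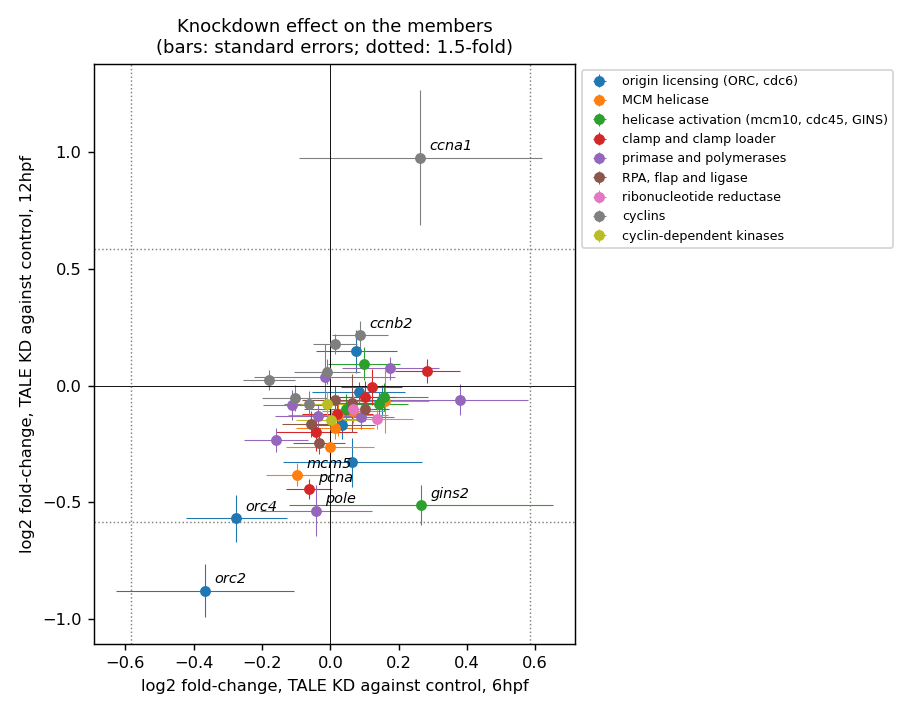
Log2 fold-change in TALE KD against control at 6hpf (x axis) and at 12hpf (y axis) for each of the 48 genes, coloured by role, with standard errors as bars and dotted lines at 1.5-fold. All genes lie within the dotted lines at 6hpf, and at 12hpf 38 of 48 lie below 0, with orc2 lowest at -0.88 and ccna1 highest at 0.98.

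Other gene lists moved at 12hpf beside these differences. Of 9 early gastrula markers tested, all 9 had a log2 fold-change above 0 in TALE KD, from 0.16 to 1.49. In edgeR's test 0 were called, and 8 had an unadjusted p under 0.05, against 3158 of 11640 genes. DESeq2 called 2 higher, gsc and sox32, against 63 of 11640 genes. Of 11 segmentation markers, 10 lay below 0 and 5 were called lower, against 1.26% of all genes. Among them was egr2b, at 0.430, 0.856 and 1.37 CPM in TALE KD against 52.95, 53.3 and 52.0 CPM in control. The paper names egr2b, mafba and hoxb1a of this list among genes downregulated in TALE KD. A difference in stage and an effect on such genes themselves can therefore not be told apart by this list. All 11 p53 response genes lay above 0, with a median of 0.70. In 9 of them all TALE KD libraries lay above all controls, compared with 16.3% of all genes. The proapoptotic gene bbc3 (puma) was called higher, at 14.9, 20.2 and 8.87 CPM against 2.34, 3.53 and 4.44 CPM (2.09 ± 0.33, adjusted p = 0.0087). This call was lost without any single 12hpf library other than TALE KD replicate 3 (adjusted p of 0.0121 to 0.0468) and with scaling by library totals (adjusted p = 0.0104). The CDK inhibitor gene cdkn1a (p21) had 38.1, 43.7 and 19.7 CPM in the TALE KD libraries, while its controls had 7.24, 8.25 and 12.7 CPM (1.84 ± 0.32, adjusted p = 0.0116). It was called with the replicate block (1.78, adjusted p = 0.000561) and without TALE KD replicate 3 (2.12, adjusted p = 0.000571). Of the 11, DESeq2 called 5 higher, cdkn1a among them, against 63 of 11640 genes. The test of edgeR called 1 higher, against 34 of 11640 genes. In bbc3 and cdkn1a alike, replicate 3 was the lowest TALE KD library and the highest control. The part of these lists in the differences of the replication genes was not tested.

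Among the lists of other cycle genes, the G1 kinase gene cdk4, the partner of D-type cyclins, was called lower at 12hpf, with 31.1, 28.7 and 35.5 CPM in the TALE KD libraries and 54.9, 58.6 and 51.4 CPM in those of the controls (-0.80 ± 0.09, adjusted p = 0.00239). The call was lost without control replicate 1 or 2 or TALE KD replicate 1 or 2 (adjusted p of 0.0153 to 0.0186). The maternally supplied ligand gene gdf3 was also called lower (-0.64 ± 0.10, adjusted p = 0.00714), a call that was lost without any single 12hpf library other than TALE KD replicate 3 (adjusted p of 0.0151 to 0.0448) and with scaling by library totals (adjusted p = 0.013). No gene of the lists of other replication, mitosis and CDK inhibitor genes was called in edgeR's test. Of the 22, 20 and 17 tested, 10, 5 and 6 had an unadjusted p under 0.05, against 3158 of 11640 genes. DESeq2 called 1 gene of these lists higher, cdkn1a, against 63 of 11640 genes.

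The difference between the stages in the TALE KD effect, which equals the difference in stage change between TALE KD and control embryos, was tested over the 12 libraries, so it shares them with the comparisons above. Here genes were counted by the adjusted p alone, without regard to size. None of the 48 genes had an adjusted p of at most 0.01 in edgeR's test, where 4 of 11450 genes did (0.0349%). An unadjusted p under 0.05 in that test was found for 8 of the 48 and for 993 of 11450 genes. The smallest p was that of pcna, with a difference of -0.36 ± 0.08 on the log2 scale (adjusted p = 0.129), and DESeq2 gave it an adjusted p of 0.00983 at a difference of -0.36, which is under 1.5-fold. Of the 48 genes, 37 had a difference below 0, with a median of -0.14 against 0.009 over all genes, while all 7 cyclins lay at or above 0, from 0.00 to 0.72. The calls that were made in one group of embryos and not in the other, such as those of gins2 (-0.76 ± 0.41) and pole (-0.48 ± 0.22), are therefore not shown to differ between the groups.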

How the data were processed

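The tables hold 1 value per gene for each of the 12 libraries. Per the labels and the methods, the authors checked reads with FastQC, aligned them to the danRer10 (GRCz10) transcriptome and quantified genes with RSEM 1.2.28. Although named for TPM, the deposited values are RSEM's expected counts (estimated counts), since columns sum to between 11884808 and 40924971 and 75.4% to 80.0% of values are whole. They were rounded, scaled by TMM and tested with edgeR 4.0.16 (glmQLFTest, two-sided, R 4.3.3), with genes at a mean of at least 10 counts. DESeq2 1.42.0, other scalings, no filter, a replicate block and leaving out libraries were alternatives. The procedure was also run on simulated counts with independent replicates and set changes larger than 1.5-fold. That run gives no measure of how smaller differences are found.

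Each knockdown fit used the 6 libraries of its stage, each stage fit the 6 libraries of its treatment, and the difference of stage changes all 12. Members and lists were chosen with earlier results of these data known. Every member is named, with values per library for the cyclins, both kinases, the largest called rise and fall of each role and the knockdown calls. From each other list the largest called rise and fall and the genes called in TALE KD are named. The exception is the segmentation markers called lower in TALE KD, of which only egr2b is given with values. The genes ccnb3, ccnd2a, ccnd2b, gsc, tfdp2, ccng1 and the p53 targets other than bbc3 were added after their values were seen.

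Groups shared replicate numbers 1 to 3. Deviations from the group mean correlated between same-numbered control and TALE KD libraries at 6hpf (r of 0.32 to 0.47, against -0.38 to -0.03 for different numbers). Deviations within a group cancel out, so positive values for the same number bring negative ones for different numbers. These ranges are therefore not independent of each other. At 12hpf r was 0.28 to 0.54 for the same number and -0.39 to 0.25 for different numbers. There replicates 1 and 2 correlated across numbers (0.25 and 0.22) nearly as within them, and only replicate 3 was distinct. Such pairing was seen in the data only, since the labels do not say what a number marks. Between stages it was absent (r of -0.09 to 0.00). No replicates were alike enough to be 1 library. The study left out 1 unnamed library at 12hpf, and none was left out here.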

Additional observations from a re-analysis of the deposited data

How the results depend on the processing

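The numbers of the 48 genes that rose or fell with stage stayed within 1.5 times of those reported under every alternative, and none of the 48 was called at 6hpf under any. The number called lower in TALE KD at 12hpf was 1 and lay between 0 and 2 when 1 library was left out, at 0 without control replicate 1 or 2 or TALE KD replicate 1 or 2, at 1 without control replicate 3, where the gene was orc4 (-0.67, adjusted p = 0.00388) and not orc2, and at 2 without TALE KD replicate 3 (orc2 and pole). It was 3 without replicate 3 of both groups, where 579 of 11529 genes were called lower. Over all genes, 383 of 11521 were called lower without TALE KD replicate 3 and 114 of 11672 without control replicate 3. Without any other single 12hpf library, 15 to 38 genes were. With the replicate block the number of the 48 called lower remained 1 (orc2), against 385 of 11640 genes. In that fit 10 of the 48 had an adjusted p no higher than 0.01 in place of 4. All 10 were lower (20.8%, against 8.15% of all genes). The count at that p was 9 with DESeq2, of which 8 were lower, and 20 without replicate 3 of both groups, of which 17 were lower. It was 0 to 8 without single libraries. These counts have no matching share of all genes here, so they do not show how the 48 stood beside all genes. Calls over all genes, which also require 1.5-fold, grew too, from 181 to 326 with DESeq2 and to 729 without replicate 3 of both groups. In the difference of stage changes, counted by adjusted p alone, 1 gene passed in DESeq2 (pcna, under 1.5-fold) and 0 in edgeR. The block changed no other call of the 48 in the comparisons between stages, where the numbers do not pair the libraries.

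Genes near 0 changed sign with scaling by library totals, namely mcm3 (0.078), mcm7 (0.081), mcm10 (0.12), cdc45 (0.16), pold3 (0.087), lig1 (0.14) and fen1 (0.19) in controls and pold3 (0.13) and lig1 (0.080) in TALE KD. Leaving out single libraries, the stage change of fen1 in controls lay between -0.096 and 0.0067 (without control 6hpf replicate 1), and that of gins1 in TALE KD between -0.019 (without TALE KD 6hpf replicate 1) and 0.15. None of these was called.

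Over the whole table, 181 genes called at 12hpf became 326 with DESeq2, 476 with the block, 729 without replicate 3 of both groups and 20 to 472 without single libraries. The 4 genes called at 6hpf became 28 with DESeq2, 23 with the block, 10 without a filter and 0 to 1 without single libraries. The 4 genes of the difference of stage changes became 64 with DESeq2, 37 with the block, 17 without replicate 3 of both groups and 2 to 21 without single libraries. In TALE KD embryos library totals gave 4289 rises and 2117 falls, against 3524 and 2847. At 3 libraries a group, differences under 1.5-fold in single genes could not be called by rule, and at 10 to 15 counts ccna1 is measured coarsely in control 12hpf.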

Other observations

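Libraries were ranked within their group over the 48 genes only, so no share of all genes stands beside these counts. Control 6hpf replicate 1 was the lowest control for 24 of them and the highest for 16. For pole the 3 control 6hpf libraries were at 44.1, 71.4 and 69.6 CPM. Control 12hpf replicate 3 was the lowest for 32 and the highest for 9. TALE KD 6hpf replicate 2 was the highest of its group for 29 and the lowest for 6. TALE KD 12hpf replicate 3 was the lowest for 22 and the highest for 15.

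In the list of G1 and E2F control, the next largest rise in controls after myca was that of tfdp2, which encodes a dimerization partner of E2F factors. It was at 6.19, 5.86 and 5.27 CPM at 6hpf and at 83.3, 83.7 and 74.8 CPM at 12hpf (3.76 ± 0.10), with 81.3, 86.3 and 75.4 CPM in TALE KD at 12hpf. The p53 target and atypical cyclin gene ccng1 fell from 1728, 1827 and 2128 CPM to 588, 654 and 869 CPM in controls (-1.47 ± 0.14). TALE KD levels at 12hpf were 1090.5, 1177 and 912 CPM, above all controls (0.58 ± 0.15, adjusted p = 0.0443 in edgeR's test). The p53 targets phlda3 (1.37 ± 0.26) and mdm2 (0.47 ± 0.10) also lay above all controls there and did not pass the test. With the replicate block ccng1 (0.59, adjusted p = 0.00456) and phlda3 (1.35, adjusted p = 0.00106) were called higher, as they were without control replicate 3 (ccng1, 0.77) and without TALE KD replicate 3 (phlda3, 1.60).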
